A study of Mus musculus with 8 samples.

Results

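The genes described here are the mouse RNA adenosine deaminases, the enzymes that turn adenosine into inosine within RNA. Of the 6 genes listed for this family, 5 had a row in the table of 44343 genes by exact gene name: Adar, Adarb1, Adarb2, Adat1 and Adat2. All 5 passed the filter on low values, a mean normalized count of at least 10 over the 8 libraries. The other listed gene, Adat3, was not analysed here.

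Beta cells were sorted from mice of 1 month carrying floxed Adar alleles, the MipCreER transgene and the R26R-EYFP reporter. MipCreER puts a tamoxifen-activated Cre under an insulin promoter, and the reporter labels cells in which Cre has acted with yellow fluorescent protein. Tamoxifen was given to every mouse, 2 times 8 mg, and 7 days afterwards the fluorescent cells were sorted from islets. Adar floxed/floxed mice gave the 4 KO libraries and Adar floxed/+ mice the 4 Het libraries, so the controls carry the transgene, the reporter, the drug and 1 floxed Adar allele as well. There is no wild-type group among them. The number of mice behind a library is not given in the labels, so p-values rest on the spread between these libraries only. Under the scaling as deposited, the limma test pooled that spread over genes of like level. Its p-values and intervals there do not measure a gene's own spread.

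Inosine is read as guanosine by ribosomes and by reverse transcriptase, so these enzymes can change codons, splice sites and the pairing of RNA duplexes. Adar encodes ADAR1, which edits long double-stranded RNA and has a long isoform made from an interferon-inducible promoter. That isoform is known for shielding the cell's own duplexes from the sensors MDA5, PKR and ZBP1. Adarb1 encodes ADAR2, which recodes transcripts of ion channels and receptors and is expressed in rodent islets. Adarb2 encodes ADAR3, a brain-enriched relative for which no editing activity is known. Adat1 acts on the anticodon loop of an alanine tRNA, and Adat2 is the catalytic subunit of the enzyme, shared with Adat3, that makes inosine at the wobble position of tRNAs.

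The libraries held 5.37 to 15.9 M whole reads, recovered from the deposited normalized counts, in which each library's gene counts have been divided by a single size factor. Levels under this scaling differed between libraries beyond genotype, and KO 1 and KO 2 had the largest normalized totals. With TMM scaling, which resets each library by its trimmed mean of log ratios, the median log2 fold change of all tested genes moved by −0.21. The mitochondrial share of reads was 17.4% in KO 3 and at most 10.4% elsewhere, and olfactory and vomeronasal receptor genes, which mark stray signal in beta cells, took 0.0353% of reads in KO 2 and 0.327% in KO 3. In 5 libraries both Xist and Ddx3y reached 100 normalized counts, and these are called libraries of both sexes. Het 1 had 19.2 of Xist, and KO 3 and KO 4 had at most 1.10 normalized counts of Ddx3y, a gene of the Y chromosome. Summed beta-cell markers reached 628782 to 1293690 normalized counts in Het and 227404 to 1370660 in KO.

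Adar has more than 1 transcription start, and the RefSeq promoter windows of 300 bases (250 before to 50 after a start, build GRCm38.p6, the same assembly as mm10) were searched for the interferon-stimulated response element, the site through which interferon switches genes on. Of the 6 listed genes, 5 had a window, 7 windows in all, 3 of them for Adar. Its core, read as GAAA, any 2 bases and GAAA, and searched on both strands, was in 0 of these 7 windows and in 3.44% of 32851 windows of all genes. The shorter form GAAANNGAA, which every match of the longer one contains, was in 8.56% of all windows and in 1 of the 7, the window of the most downstream Adar start, with 2 matches. This shorter form was added after the Adar sequence had been read. Of 15 interferon-induced reference genes, 11 had windows, 5 with the longer and 6 with the shorter form. The sequences show the Adar window up to its start (chr3:89730468-89730717, plus strand), the 30 bases of the same window that hold the second match (chr3:89730738-89730767, plus strand) and, for comparison, the 30 bases around the matches of Isg15, a strongly interferon-induced gene (chr4:156200871-156200900, minus strand). Capitals mark bases within a match to the shorter form.
Adar before the start: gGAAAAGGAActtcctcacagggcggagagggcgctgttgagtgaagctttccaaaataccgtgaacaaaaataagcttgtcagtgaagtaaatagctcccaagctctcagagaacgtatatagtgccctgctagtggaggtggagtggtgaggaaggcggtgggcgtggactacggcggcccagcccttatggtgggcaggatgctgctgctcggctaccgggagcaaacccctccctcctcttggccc
Adar around the second match: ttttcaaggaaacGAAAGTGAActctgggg
Isg15 around its matches: gtagGAAAAGGAAACCGAAACAGAAaatag
The second Adar match begins at base 34 after the RefSeq start. A match is a string of letters and not a measured binding site, and gene-level counts do not tell reads from the different starts apart.

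Adar was the most abundant family member, and its level was spread much more widely among the KO libraries than among the Het libraries. The gene (ENSMUSG00000027951, protein-coding) lies on chromosome 3 from 89715022 to 89753446 on the plus strand of mm10, with 8118 bases of exon. Its normalized count was 943, 1173, 1187 and 744 in Het 1 to Het 4. It was 4030, 2365, 615 and 1343 in KO 1 to KO 4. KO 1, KO 2 and KO 4 lay above every Het library and KO 3 lay below every one, so the groups overlapped. The mean was 1012 ± 211 in Het and 2088 ± 1480 in KO (SD, n = 4 each). The highest library exceeded the lowest 1.60-fold within Het and 6.55-fold within KO. With TMM scaling these ranges of Adar were 1.29-fold and 3.66-fold. The wider spread in KO was not particular to Adar: under the deposited scaling the ranges of Adarb1 were 1.68-fold and 5.25-fold.

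The log2 fold change of Adar, KO relative to Het, was 0.75 with a standard error of 0.58 and a 95% interval from −0.39 to 1.89 (limma adjusted p = 0.910). With TMM scaling it was 0.53 with an interval from −0.18 to 1.25 (limma adjusted p = 0.681). The gene count pools reads from all exons and the labels do not name the floxed ones, so the level of Adar is no check of the genotype. An exact two-sided permutation test of the 8 normalized counts on the log2 scale gave p = 0.286, and with 70 arrangements no p below 0.0286 is possible. Among all 21498 tested genes, 93.5% had a lower log2 fold change than Adar. TMM scaling shifts all genes by nearly the same amount, so it could hardly change this rank. Chrnb2, a nicotinic receptor subunit gene on the opposite strand, shares 1365 bases of exon with Adar, 16.8% of its exon length, and the strand setting of the counting is not stated. Chrnb2 had 297 to 407 normalized counts in Het and 150 to 670 in KO.

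**Figure D1:**
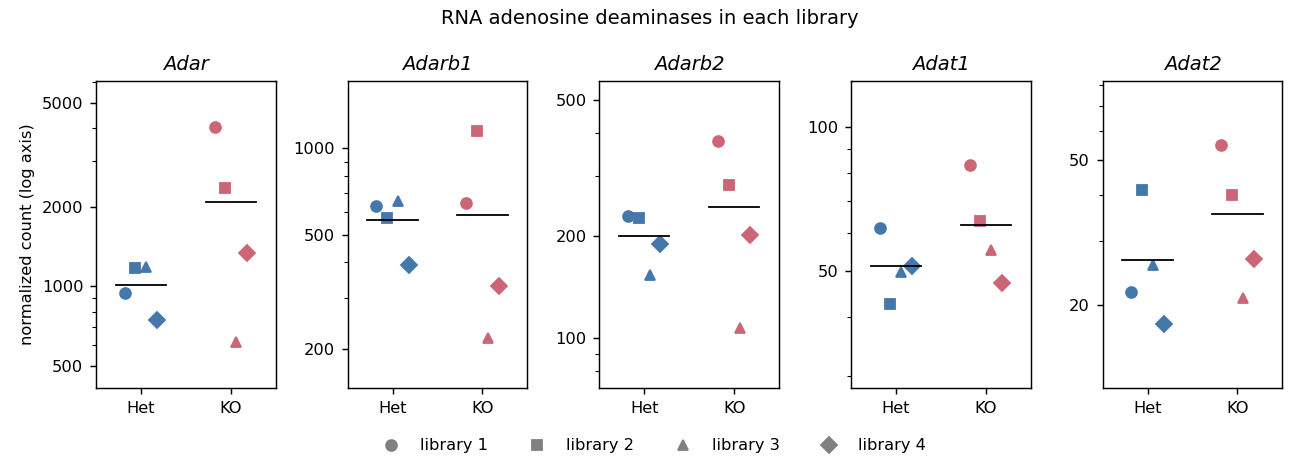
Normalized count (log axis) of the 5 deaminase genes in each of the 4 Het and 4 KO libraries. Marker shape gives the library number and the line is the group mean. The KO libraries of Adar run from 615 to 4030, below and above the Het range of 744 to 1187, and for each of the 5 genes the groups overlap.

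Leaving out single libraries kept the sign of the Adar change but moved its size, from 0.33 without KO 1 to 1.23 without KO 3. Against Het, KO 1 and KO 2 alone gave a log2 fold change of 1.63 (limma adjusted p = 1.61e-06), in a fit that called 62.7% of all genes and had a median of 0.62 over them. KO 3 and KO 4 alone gave −0.13 (limma adjusted p = 0.869), in a fit that called 8.25%. With TMM scaling as well, these values were 0.95 (limma adjusted p = 8.68e-06, 45.0% of genes called) and 0.10 (limma adjusted p = 0.869, 7.43% called). In these TMM fits too, limma pooled the spread over genes of like level, largely for KO 1 and KO 2 and completely for KO 3 and KO 4. Their p-values do not measure the spread of Adar itself. The 5 libraries of both sexes gave 1.61 (limma adjusted p = 0.000163), in a fit that called 52.5% of genes and had a median of 0.63. The sex of the mice and the depth of the libraries moved with these subsets, and their part in the result was not tested.

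Once the libraries were placed on the TMM scale, the KO libraries fell in the same order by Adar as by interferon-induced genes. Relative to the Het mean on the log2 scale, Adar in KO 1, KO 4, KO 2 and KO 3 stood at 1.42, 0.62, 0.53 and −0.45. The median of 15 interferon-induced reference genes, such as Isg15 and Ifit2, in the same libraries stood at 3.95, 2.76, 1.99 and 1.69. The order was that of 4 libraries, and no test was made of it. By Adar, KO 4 and KO 2 were close on this scale. Under the deposited scaling Adar was higher in KO 2 than in KO 4, at 2365 and 1343 normalized counts. The median of the interferon-induced genes was higher in KO 3 than in every Het library, whereas Adar in KO 3 was below every Het library, which ran from −0.21 to 0.16. Adarb1 followed another order, with KO 2 at 0.33, KO 1 at −0.37, KO 4 at −0.55 and KO 3 at −1.09.

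**Figure D2:**
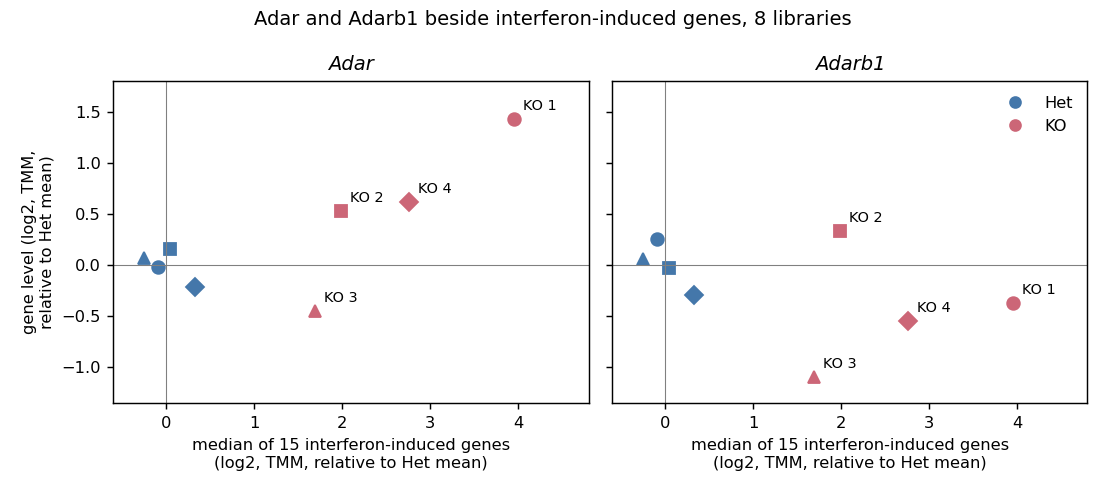
TMM-scaled log2 level of Adar (left) and Adarb1 (right) against the median of 15 interferon-induced genes, each relative to the mean of the Het libraries, with 1 point per library. KO 1 is highest on both axes for Adar, at 1.42 and 3.95, and KO 3 is lowest of the KO libraries on both, at −0.45 and 1.69, while Adarb1 is highest in KO 2.

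The sensors that ADAR1 editing is known to restrain were measured beside it. Of 10 such genes, 5 were called higher in KO and 0 lower, where 0.944% of all tested genes were called in either direction and 0.921% called higher (limma, Benjamini-Hochberg adjusted p under 0.05, the rule for every call unless another tool is named). Their median log2 fold change was 2.18, against 0.052 for all tested genes. Ifih1, which encodes MDA5, had normalized counts of 161, 230, 211 and 198 in Het 1 to Het 4 and 7496, 1601, 507 and 1530 in KO 1 to KO 4, and Zbp1 rose by a log2 of 4.78. The other genes called were Oas2, Oas1a and Dhx58, which rose by 3.47, 2.76 and 2.7. Of the 15 interferon-induced reference genes, 10 were called higher and 0 lower, with a median of 2.89, and Ifit2 and Isg15 rose by 5.75 and 4.62. The interval of Adar reached up to 1.89, below the median of either list.

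Adarb1, the gene of ADAR2, had a lower value in KO 3 and KO 4 than in every Het library and a higher one in KO 2. It lies on chromosome 10 from 77290726 to 77418270 on the minus strand (ENSMUSG00000020262), with 11272 bases of exon. Its normalized count was 630, 573, 656 and 391 in Het 1 to Het 4 and 646, 1147, 218 and 332 in KO 1 to KO 4. The groups overlapped, at 562 ± 119 in Het and 586 ± 415 in KO (SD, n = 4 each). The log2 fold change was −0.20 with a 95% interval from −1.23 to 0.84 (limma adjusted p = 0.978). With TMM scaling it was −0.42, from −1.01 to 0.18 (limma adjusted p = 0.697). The exact two-sided permutation test gave p = 0.800. KO 3 and KO 4 alone gave −1.03 against Het (limma adjusted p = 0.0237), where 8.25% of all genes were called and their median was −0.14. KO 1 and KO 2 alone gave 0.64 (limma adjusted p = 0.0420), close to the median of 0.62 over all genes in that fit, of which 62.7% were called. On the TMM scale KO 1 was below the Het mean of Adarb1 and KO 2 above it, at −0.37 and 0.33. Summed neuron markers, which include granule genes that beta cells share such as Snap25, were lowest in the same KO 3 and KO 4 (1229 and 1422 normalized counts) and highest in KO 2 (5818), against 1966 to 3327 in Het. Their part in the result was not tested.

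The ratio of Adar to Adarb1 within a library does not depend on how libraries are scaled. Per kilobase of exon it was 2.08, 2.84, 2.51 and 2.64 in Het 1 to Het 4 and 8.66, 2.86, 3.91 and 5.62 in KO 1 to KO 4. Every KO library lay above every Het library. The gap between Het 2 and KO 2 was inside counting error, with 95% exact binomial intervals from 2.54 to 3.19 and from 2.64 to 3.11. The mean log2 ratio was 0.95 higher in KO, and from 0.67 without KO 1 to 1.20 without KO 2. The ratio was examined after the values had been seen and is a description. It was 1 of 10 ratios between pairs of the 5 genes, and the groups overlapped in the other 9. Such separation was common: 6.92% of genes had a ratio to Adarb1 that was higher in every KO than in every Het library, and the ratio of Adar to each gene was separated in this direction for 10.6% of genes.

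**Figure D3:**
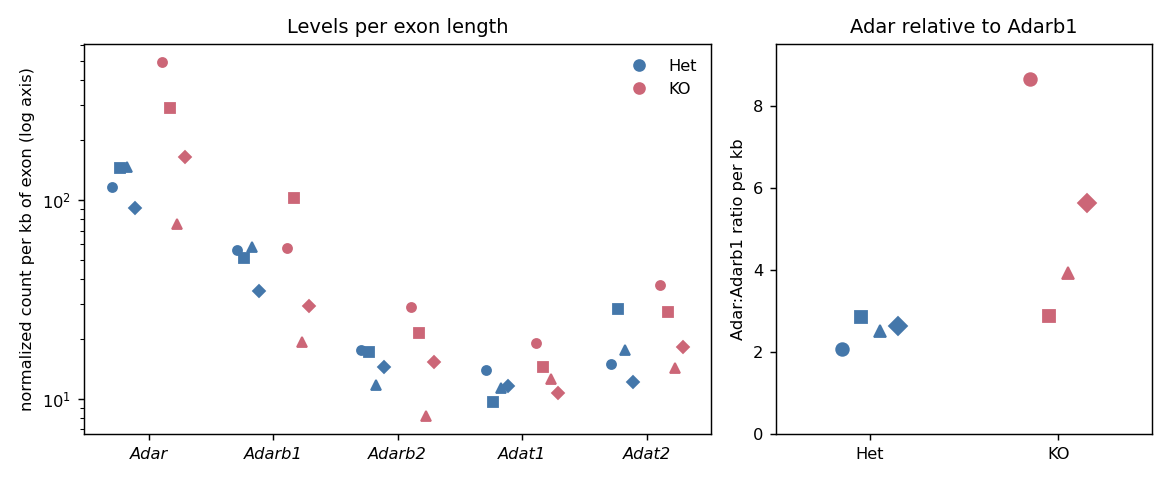
Left, normalized count per kilobase of exon (log axis) of the 5 deaminase genes in each library. Right, the ratio of Adar to Adarb1 per kilobase, which runs from 2.08 to 2.84 in Het and from 2.86 to 8.66 in KO, marker shapes giving the library number in the order circle, square, triangle, diamond.

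Adarb2, the gene of the brain-enriched ADAR3, was detected in all 8 libraries at a low level for its length. It spans 566 kb of chromosome 13, from 8202866 to 8768747 on the plus strand (ENSMUSG00000052551), with 13114 bases of exon. Its normalized count was 229, 225, 153 and 190 in Het 1 to Het 4 and 380, 282, 107 and 201 in KO 1 to KO 4. KO 1 and KO 2 lay above the Het range, KO 3 below it and KO 4 inside it. The log2 fold change was 0.16 with a 95% interval from −0.76 to 1.07 (limma adjusted p = 0.981), and −0.066 with TMM scaling, so its sign turned with the scaling. The exact two-sided permutation test gave p = 0.743. Per kilobase it stood at 1.98 to 3.23 times the 95th percentile of olfactory and vomeronasal receptor genes in Het and at 0.975 to 8.14 times in KO. In KO 3 it was thus no higher than the upper end of genes that beta cells are not known to express.

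The tRNA deaminase genes Adat1 and Adat2 had the fewest reads of the 5 genes. Adat1 (ENSMUSG00000031949, chromosome 8, 111966908 to 111992302, minus strand) had 34 to 93 reads per library. Its normalized count was 61.5, 42.5, 49.7 and 51.0 in Het 1 to Het 4 and 83.4, 63.4, 55.1 and 47.0 in KO 1 to KO 4. The groups overlapped, although KO 1 and KO 2 again held the highest values. Adat1 had a log2 fold change of 0.26 with a 95% interval from −0.52 to 1.04 (limma adjusted p = 0.961), and 0.040 with TMM scaling. The exact two-sided permutation test gave p = 0.286. Across all 8 libraries its highest value was 1.96 times its lowest, the narrowest range of the 5 genes.

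Adat2 (ENSMUSG00000019808, chromosome 10, 13552894 to 13563376, plus strand) had 17 to 61 reads per library. Its normalized count was 21.8, 41.3, 25.7 and 17.8 in Het 1 to Het 4 and 54.7, 40.1, 21 and 26.8 in KO 1 to KO 4. Het 2 exceeded every KO library other than KO 1. Counting error alone gave a 95% exact Poisson interval from 12.7 to 34.9 in Het 1. The log2 fold change was 0.38 with a 95% interval from −0.41 to 1.18 (limma adjusted p = 0.945), and 0.17 with TMM scaling. The exact two-sided permutation test gave p = 0.343. Pex3, a gene of peroxisome assembly read from the opposite strand, shares 249 bases of exon with Adat2, 17.0% of its exon length, and had 148 to 484 normalized counts.

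As a family, limma called 0 of the 5 genes, and 0 passed at an unadjusted p under 0.05, against the 0.944% of all genes called. Of the 5 genes, 0 were called and 0 passed unadjusted with TMM scaling (0.674% of genes called) and with edgeR (0.708%) as well. DESeq2 called 0 of 5 (0.483% of genes), and Adar alone had an unadjusted p under 0.05. Of 44333 genes in DESeq2, 1620 were higher and 432 lower at that unadjusted level. Among genes with a mean of 200 or more under TMM scaling, limma called 0 of the 3 that remained, Adar, Adarb1 and Adarb2 (10.3% of genes). Adar and Adarb1 had an unadjusted p under 0.05 there, as did 1042 higher and 1027 lower genes of the 6697 tested. Per kilobase of exon in Het, the level was 125 ± 26.0 for Adar, 49.9 ± 10.6 for Adarb1, 18.2 ± 7.00 for Adat2, 15.2 ± 2.7 for Adarb2 and 11.6 ± 1.78 for Adat1 (SD, n = 4 each). Adar was above Adarb1 and Adarb1 above the others in every Het library and every KO library, by levels that did not overlap within Het. The ranges of Adat2, Adarb2 and Adat1 overlapped one another, so no order is given to these. Within a library, Adar stood above 87.2% to 95.2% of tested genes per kilobase and Adarb1 above 58.1% to 76.2%.

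**Figure D4:**
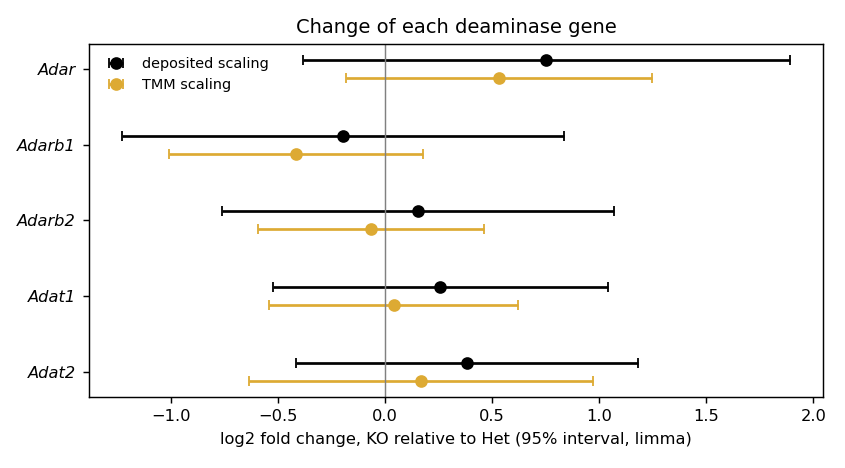
Log2 fold change of each deaminase gene, KO relative to Het, with the 95% interval of limma under the deposited scaling (black) and TMM scaling (yellow). All 10 intervals cross 0, and the Adar estimates are 0.75 and 0.53.

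The genes whose profile over the 8 libraries was most like that of Adar were Usp31, a deubiquitinase gene, Zswim5, Intu, which acts in cilium formation, Rcbtb1, Zc3hav1, which encodes the antiviral RNA-binding protein ZAP, and Insm1, a transcription factor of endocrine cells. Likeness was the root-mean-square difference between centred log2 profiles, among 10451 genes averaging 50 or more normalized counts, predicted genes, pseudogenes and mitochondrial genes left out. It ran from 0.0953 for Usp31 to 0.118 for Insm1. A factor applied to a whole library nearly cancels in this difference. That the same 6 genes led with TMM scaling is therefore no separate check. The rest of the family stood at 0.442 for Adat2, 0.470 for Adarb2, 0.645 for Adarb1 and 0.678 for Adat1. The 6 genes were picked as the closest, so larger differences for the family were nearly fixed in advance. The place of the family among all genes by this difference was not counted. These profiles share the library totals. For the others, the closest genes were Pdxk and Pou6f1 for Adarb1, Incenp and Fam161b for Adarb2, Zfp354c and Tdp1 for Adat1 and Taf1c and Recql5 for Adat2.

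Partners and regulators of the ADAR enzymes did not pass the test under the deposited scaling. Of 17 listed genes, 16 were tested and 0 called (limma, also 0 at an unadjusted p under 0.05), and edgeR and DESeq2 called 0 as well, with a median log2 fold change of 0.37. Aimp2, a scaffold of tRNA synthetases that lowers ADAR protein, had a log2 fold change of 0.61 (limma adjusted p = 0.885), and Ilf2, which encodes a nuclear RNA-associated protein, had 0.45 (limma adjusted p = 0.948). Of the 5 readers of inosine in RNA, 0 were called by limma, by edgeR or by DESeq2. None reached an unadjusted p under 0.05 in limma, and the median was 0.52. Matr3, a nuclear matrix protein bound with inosine-containing RNA, had 0.71, Endov, an endonuclease that cuts beside inosine, 0.51 and Snd1, an inosine-directed nuclease, 0.57. In these lists KO 1 and KO 2 were high and KO 3 low, as for Adar, with TMM medians of 0.45, 0.42 and −0.40 for the partners. KO 4 was unlike Adar, with TMM medians of −0.15 for the partners and 0.15 for the readers, where Adar stood at 0.62. Among genes with a mean of 200 or more under TMM scaling, limma called 1 of 15 partners and 1 of 5 readers higher, in a fit that called 10.3% of all genes.

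Enzymes that handle free adenosine and inosine were tested in 10 of 12 cases, with 0 called by limma, by edgeR or by DESeq2. In limma 1 gene was higher at an unadjusted p under 0.05, as were 871 of all 21498 tested genes. It was Pnp, the phosphorylase that splits inosine, with a log2 fold change of 0.90 and an interval from 0.11 to 1.70 (limma adjusted p = 0.590). Adal, a deaminase of modified adenosine monophosphate, had 0.54 and Itpa, which removes inosine triphosphate, 0.44. The list's median was 0.12, and −0.061 with TMM scaling.

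Of 38 other tRNA modification enzymes, limma called 0 under the deposited scaling and DESeq2 called 0. In limma 2 were higher at an unadjusted p under 0.05, as were 871 of all 21498 tested genes. All 38 had a positive log2 fold change in limma under the deposited scaling, with a median of 0.46. The median was 0.052 over all tested genes and 0.25 over genes averaging 50 or more. With TMM scaling 33 of 38 were positive, with a median of 0.24, against −0.16 over all tested genes. The list's TMM medians were 0.61, 0.34, 0.028 and 0.063 in KO 1 to KO 4. The share of all genes with a positive value was not counted. Trmt10c, a subunit of mitochondrial RNase P that also methylates tRNA, had normalized counts of 146, 149, 223 and 159 in Het 1 to Het 4 and 638, 581, 276 and 235 in KO 1 to KO 4. Every KO value lay above every Het value, as for 2.19% of tested genes. Its log2 fold change was 1.24 (limma adjusted p = 0.407), and it was called with TMM scaling (1.02, limma adjusted p = 0.0307) and with edgeR (adjusted p = 0.0387). Trdmt1, a tRNA cytosine methyltransferase, had 0.89 and Nsun3, a methyltransferase of a mitochondrial tRNA, 0.84.

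Markers of other cell types bear on genes of low level such as Adarb2 and Adat2. Of the marker lists for 12 other cell types, all listed genes with a row had reads in at least 1 library. C1qa, a complement gene of macrophages, and Krt19, a keratin of ducts, were called lower in KO, with log2 fold changes of −1.79 and −1.69, where 0.0233% of tested genes were called lower. They were 1 of 5 tested markers in each of their lists. Krt19 had 201 normalized counts in Het 3 and 27.5 to 52.5 in the other Het libraries. Summed macrophage markers ran from 348 to 495 normalized counts in Het and from 189 to 368 in KO. Summed duct markers ran the other way in KO 1 and KO 2, at 4168 and 3579, and were 1295 and 1259 in KO 3 and KO 4, against 1231 to 2494 in Het. The duct marker of highest mean was Krt7, while Krt19 had 9.86 and 28.5 normalized counts in KO 1 and KO 2. KO 1 and KO 2 also had the largest normalized totals. The part of these cells in the results was not tested.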

How the data were processed

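RNA of 8 libraries of sorted mouse beta cells was sequenced, made with the SMARTer Stranded Total RNA-Seq Kit v3 per the labels' protocols. Tools listed in the submitters' processing notes are STAR 2.7.3a, HTSeq, UMI-tools, FastQC 0.11.8 and DESeq2 1.28.1, with build mm10. The annotation, strand setting and removal of duplicates are not given in the sources used here. The signal values deposited by the authors are normalized counts, with a single size factor dividing each library. Dividing by a library's smallest nonzero value returned whole reads for 100% of values (tolerance 0.001 of a step). No pair of replicates agreed within counting noise. Intervals from reads cover counting error only.

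Differences were tested on log2(value + 1) with limma 3.58.1 in R 4.3.3, using trend and robust settings, genotype as the only term, two-sided, on the 21498 genes averaging 10 or more, and Benjamini-Hochberg adjustment over all of them. Fold changes on this scale understate those of low genes. With the scaling as deposited, the variances of genes of like level were pooled completely by limma. The same held with TMM scaling for KO 3 and KO 4 alone, and pooling was large with TMM scaling for KO 1 and KO 2 alone. Whole reads were tested with the quasi-likelihood test of edgeR 4.0.16 (165 genes called) and with DESeq2 1.42.0 (214). Other alternatives were pseudocounts of 0.5 and 8, other filters, TMM scaling, eBayes without trend or robust settings, a replicate block and subsets of libraries. The members and lists were chosen with earlier results of these data known. Named were all members, the 3 genes of smallest p per list (up to 5 where called) and the genes of most similar profile. Some genes that this rule names are not reported here. Exon lengths and positions are those of GENCODE M21 (mm10), counted from base 1, and length is the union of all annotated exons. The script was tested on simulated counts.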

Additional observations from a re-analysis of the deposited data

How the results depend on the processing

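The 0 calls among the deaminases held under every full-library alternative. Adarb2 turned negative with TMM scaling (−0.066), among genes averaging 200 or more under TMM (−0.088) and with edgeR (−0.046), and Adarb1 turned positive with DESeq2 (0.058). Leaving out each library gave 0.33 to 1.23 for Adar, −0.61 to 0.18 for Adarb1 (positive without KO 3), −0.11 to 0.50 for Adarb2 (negative without KO 1), 0.11 to 0.38 for Adat1 and 0.15 to 0.61 for Adat2, with 0 calls (lowest limma adjusted p = 0.241, Adar without KO 3). Against KO 1 and KO 2 only, Adar was 1.63, Adarb1 0.64, Adarb2 0.73 and Adat2 0.86, all called, with 12991 genes (62.7%) called in all and a median of 0.62 over all genes. Against KO 3 and KO 4 only, Adar was −0.13, Adarb1 −1.03 (called), Adarb2 −0.42 and Adat2 −0.095, with 1862 genes (8.25%) called and a median of −0.14. With libraries of both sexes only, Adar was 1.61 and Adarb2 0.80 (called) and Adarb1 0.71, with 10587 genes (52.5%) called and a median of 0.63. With TMM scaling, added after seeing the data, Adar was 0.95 (called) against KO 1 and KO 2. The 203 genes called became 688 among genes averaging 200 or more under TMM, 128 without trend or robust settings, and 111 (without KO 1) to 384 (without KO 3) on leaving out a library, 130 without Het 1 and 311 without KO 4. The replicate block gave 187 genes and 0.75 for Adar. The numbers are not known to pair libraries: deviations of same-numbered libraries correlated at 0.22, −0.05, 0.13 and 0.28 over 6697 genes. Adat2 has no value under a minimum mean of 50, nor Adat1 and Adat2 under one of 200. Adat1 and Adat2 had as few as 34 and 17 reads in a library, and whether depth limits their tests was not tested.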
